A study of Mus musculus with 4 samples.

Results

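Interleukin 2 and the receptors built on the common gamma chain were followed as 10 genes in small intestinal group 3 innate lymphoid cells (ILC3s), lymphocytes that secrete IL-22 in the gut wall. The genes were picked by symbol: the cytokines Il2, Il15 and Il21 and the receptor chains Il2ra, Il15ra, Il2rb, Il2rg, Il7r, Il4ra and Il21r. All 10 were found among the 53379 genes of the expression table, and 9 passed the expression limit for testing, a mean above 1 FPKM (fragments scaled for transcript length and library size) in either group. The ILC3s came from mixed bone marrow chimeras. Marrow of Thy1.2 Rag1-/- Smarca4 f/f mice, whose ILC3s keep Brg1, was mixed in equal numbers with marrow of Thy1.1 Thy1.2 Rag1-/- Smarca4 f/f mice in whose ILC3s Smarca4 is deleted, and given to sublethally irradiated Rag2-/-Il2rg-/- hosts, and ILC3s of each donor were sorted from the small intestine 6 to 7 weeks later. Brg1, encoded by Smarca4, is an ATPase of the SWI/SNF chromatin remodelling complex. Both donors lack Rag1 and therefore make no T or B cells, and the hosts lack the common gamma chain and recombined antigen receptors. The Thy1.1 marker goes with the deleted genotype in both libraries, so their effects cannot be told apart. There were 2 libraries per group, and neither the number of animals behind a library nor the age of the mice was given in the sources used here.

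The family works through shared parts. IL-2, IL-4, IL-7, IL-9, IL-15 and IL-21 all signal through the common gamma chain (γc, encoded by Il2rg), which carries the kinase Jak3, paired with a private chain that carries Jak1. IL-2 and IL-15 share IL-2Rβ (Il2rb) and differ in the α chain that captures them, IL-2Rα (Il2ra) or IL-15Rα (Il15ra). In the gut, IL-7 sustains ILC3s and IL-15 sustains NK cells and ILC1s, while IL-2 is best known as a product of activated T cells and has also been described in ILC3s.

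No counts were analysed, the depth is therefore unknown, and errors are given between libraries only. When each library was sorted by FPKM, 13596 of the 13693 ranks with a mean above 1 (99.3%) held values within 1% of each other, so the deposited values share 1 distribution and a difference in total RNA per cell would not appear in them. For Smarca4 the Brg1-sufficient libraries gave 17.1 and 16.7 FPKM and the Brg1-deficient ones 9.98 and 9.03 FPKM (log2 fold change -0.77, limma adjusted p = 0.153). In ILC3s taken directly from mice of the deleted genotype, the study reports efficient loss of Brg1 by flow cytometry and RT-PCR. Differences were tested with limma on log2(FPKM + 1), a scale that shrinks differences at low FPKM, over 14739 genes with Benjamini-Hochberg adjustment. An exact two-sided permutation test of 2 libraries against 2 cannot give a p below 0.333. The study calls the libraries biological duplicates, but the sources used here do not tie them to animals, and p-values measure only the spread between these libraries. In these bulk samples, fewer cells of a type and less RNA per cell cannot be told apart.

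Il2 and Il21 are the ligand genes of the set that neighbour each other on chromosome 3, and the 250 bases before each start site are shown because Il2 was the member that passed the adjusted test while Il21 stayed near 0. The sequences were taken from RefSeq on GRCm38.p6, both on the minus strand, at chr3:37125955-37126204 for Il2 and chr3:37232637-37232886 for Il21. They are written 5′ to 3′ with the start site following the last base. Capitals mark the letters GGAAAA, the core of sites bound by NFAT, on either strand, and TATAAA, the TATA box.
Il2 promoter: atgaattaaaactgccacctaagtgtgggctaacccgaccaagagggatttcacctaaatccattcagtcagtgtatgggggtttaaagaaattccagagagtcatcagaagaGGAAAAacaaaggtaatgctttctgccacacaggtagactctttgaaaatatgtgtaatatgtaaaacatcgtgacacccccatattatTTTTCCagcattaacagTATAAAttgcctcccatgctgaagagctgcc
Il21 promoter: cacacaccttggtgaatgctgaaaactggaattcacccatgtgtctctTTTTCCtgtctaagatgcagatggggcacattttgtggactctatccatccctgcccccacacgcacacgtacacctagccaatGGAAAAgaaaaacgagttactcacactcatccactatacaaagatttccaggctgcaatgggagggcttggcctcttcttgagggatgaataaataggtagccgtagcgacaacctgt

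Both windows held GGAAAA more than once, on both strands. In Il2 it lay 137 bases and, reversed, 48 bases before the start, with TATAAA 31 bases before it, whereas the Il21 window held no TATAAA. Of 32851 promoter windows of this length, 20.4% held GGAAAA and 12.4% held TATAAA. Of the 10 members, 8 had a promoter in the RefSeq table. Searched on both strands, the Il7r window also held GGAAAA and the STAT letters TTCNNNGAA (7.02% of windows). The Il21r window held a match to the NF-kB motif (0.98% of windows). Of the 2 start sites listed for Il15ra, 1 had GGAAAA and the other the AP-1 letters TGANTCA (6.75% of windows). The windows of Il2ra, Il2rg and Il4ra held none of these letters. A match describes the letters and was not tested as a binding site.

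Among the ligands, Il2 (ENSMUSG00000027720; GRCm38 chromosome 3 from 37120523 to 37125959, minus strand, 4 exons) measured 4.58 and 7.98 FPKM in Brg1-sufficient ILC3s and 59.3 and 59.6 FPKM in Brg1-deficient ILC3s. Both Brg1-deficient libraries lay far above both Brg1-sufficient libraries, and close to each other. Mean FPKM rose from 6.28 ± 2.40 (SD, n = 2) to 59.5 ± 0.191 (SD, n = 2), a ratio of 9.47, and the log2 fold change was 3.09 (SE 0.256, 95% CI 2.45 to 3.74, limma adjusted p = 0.0383). By level, Il2 moved from rank 8857 and 7190 among the 14739 genes tested to rank 1739 and 1731. It was the 1 member of the 9 tested that passed an adjusted p under 0.05, a threshold passed by 0.305% of all genes tested. Without any 1 of the 4 libraries the log2 fold change of Il2 stayed between 2.75 and 3.44 while its adjusted p was between 0.0861 and 0.415. T cells, the best known source of Il2, were looked for by 12 marker genes, of which 9 were tested. All 9 were lower in the Brg1-deficient libraries, 6 at an unadjusted p under 0.05 and 1 (Trbc1) at an adjusted p under 0.05. Among all genes tested, 12.6% had an unadjusted p under 0.05 (limma). Their summed FPKM was 435 and 271 in the Brg1-sufficient libraries and 121 and 114 in the Brg1-deficient libraries, with none of the 12 listed at 0 in all libraries. Both donors lack Rag1 and make no T cells, so these markers are not a count of T cells here. Which cells gave the message of these markers, or that of Il2, was not tested.

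Il15 (ENSMUSG00000031712; chromosome 8 from 82331632 to 82403222, minus strand), which encodes the cytokine that shares IL-2Rβ and γc with IL-2, was at 4.10 and 3.33 FPKM in Brg1-sufficient and 2.40 and 3.26 FPKM in Brg1-deficient libraries. The groups did not overlap, but Brg1-sufficient library 2 and Brg1-deficient library 2 were nearly equal, and the log2 fold change of -0.30 (SE 0.254, 95% CI -0.94 to 0.34, adjusted p = 0.653) did not pass the test. It was between -0.47 (without Brg1-deficient library 2) and -0.14 (without Brg1-deficient library 1) when 1 library was left out. Il21 (ENSMUSG00000027718; chromosome 3 from 37222759 to 37232636, minus strand), which encodes a cytokine of follicular helper T cells, was at 0.04 and 0.16 FPKM and at 0.14 and 0.34 FPKM. It stayed under the limit for testing in both groups, and no fold is given.

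**Figure D1:**
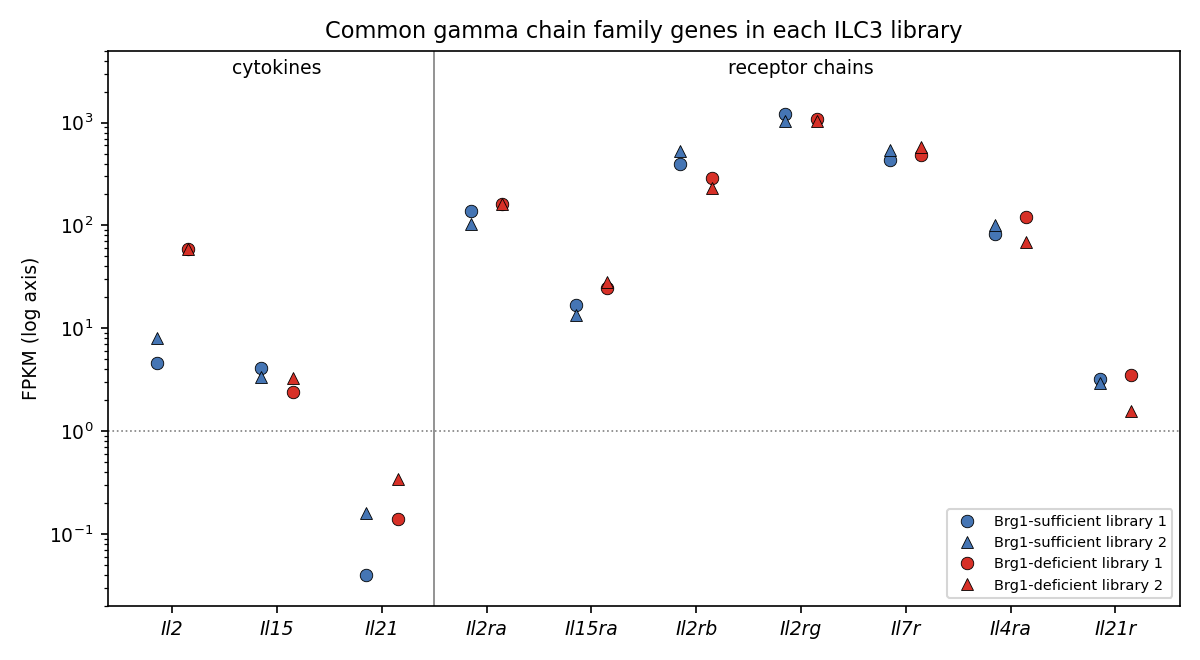
FPKM of the 10 genes on a log axis, 1 point per library (circle for library 1, triangle for library 2; blue for Brg1-sufficient, red for Brg1-deficient), with a dotted line at 1 FPKM. Il2 is at 4.58 and 7.98 FPKM in blue and at 59.3 and 59.6 FPKM in red, Il2rg is the highest in all libraries and Il21 below the line in all 4.

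The α chains of the IL-2 and IL-15 receptors, which raise the affinity for their cytokine and carry no kinase of their own, had higher means in Brg1-deficient ILC3s without passing the adjusted threshold. Il15ra (ENSMUSG00000023206; chromosome 2 from 11705290 to 11734317, plus strand) was at 16.6 and 13.3 FPKM in Brg1-sufficient and 24.8 and 28.2 FPKM in Brg1-deficient libraries. The groups did not overlap, and the mean went from 15.0 ± 2.36 (SD, n = 2) to 26.5 ± 2.42 (SD, n = 2), a ratio of 1.77. The log2 fold change was 0.79 (SE 0.183, 95% CI 0.33 to 1.25, unadjusted p = 0.0063, adjusted p = 0.181). The unadjusted p was 0.0512 without Brg1-deficient library 1 and 0.0815 without Brg1-deficient library 2. Il2ra (ENSMUSG00000026770; chromosome 2 from 11642807 to 11693193, plus strand), the CD25 gene, was at 138 and 103 FPKM against 162 and 163 FPKM. Brg1-sufficient library 1 stood nearer to the Brg1-deficient libraries than to its own replicate. The log2 fold change was 0.44 (SE 0.179, 95% CI -0.01 to 0.89, adjusted p = 0.407). The unadjusted p of Il2ra was 0.0532. Without Brg1-sufficient library 1 the log2 fold change was 0.65 (unadjusted p = 0.00933), and without Brg1-sufficient library 2 it was 0.23 (unadjusted p = 0.0712). The unadjusted p was 0.21 without Brg1-deficient library 1 and 0.214 without Brg1-deficient library 2.

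Il2rb (ENSMUSG00000068227; chromosome 15 from 78479256 to 78495271, minus strand), the signalling chain shared by IL-2 and IL-15 and known as CD122, had the opposite direction. It was at 399 and 524 FPKM in Brg1-sufficient and 292 and 231 FPKM in Brg1-deficient libraries. Both Brg1-deficient libraries lay below both Brg1-sufficient libraries, and the mean went from 462 ± 87.8 (SD, n = 2) to 262 ± 43.4 (SD, n = 2), 56.7% of the Brg1-sufficient mean. The log2 fold change was -0.81 (SE 0.20, 95% CI -1.32 to -0.31, unadjusted p = 0.00834, adjusted p = 0.198), which did not pass the adjusted threshold. The unadjusted p was 0.0969 without Brg1-sufficient library 2 and 0.101 without Brg1-deficient library 2.

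Markers of other cell types that use these receptors were read in the same libraries, for which the gate took cells with much Thy1.2 and little CD45 and divided them by Thy1.1. ILC1s and NK cells, which carry much IL-2Rβ, were represented by 12 markers. Some of these, such as Ncr1, Tbx21 and Ifng, are also known from the NKp46+ subset of ILC3s, so the list does not tell that subset from ILC1s and NK cells. Of the 10 tested, 9 were lower in the Brg1-deficient libraries. An unadjusted p under 0.05 was reached by 6 of these, and an adjusted p under 0.05 by 2 (Ncr1 and Ifng). Among all genes tested with limma, 12.6% and 0.305% reached these thresholds. Ncr1 was at 31.3 and 35.5 FPKM against 5.37 and 6.02 FPKM, while the summed FPKM of the 12 was 218 and 365 against 492 and 278. That sum was led in the Brg1-deficient libraries by Gzma, a granule protease, at 50.8 and 103 FPKM against 397 and 218 FPKM. Eomes, which defines NK cells, was at 0.41 FPKM or less in all 4 libraries. For ILC2s, which carry IL-2Rα, 8 of the 9 tested markers of 10 were lower, 6 of them at an unadjusted p under 0.05 (the farthest Ccr8, at 51.7 and 8.41 FPKM against 0.23 and 0.24 FPKM). The other, Hpgds, a prostaglandin D2 synthase, was higher at an unadjusted p under 0.05, with 2.31 and 6.61 FPKM against 20.6 and 19.9 FPKM. None of the ILC2 markers passed an adjusted p under 0.05 (limma), and the summed FPKM of the 10 was 438 and 246 against 124 and 155. For myeloid and dendritic cells, which present IL-15 on IL-15Rα, 9 of the 10 tested markers of 12 were lower, 2 at an unadjusted p under 0.05. Their summed FPKM was 198 and 373 against 126 and 310. None of these markers was listed at 0 in all 4 libraries, and the part of these cells in the values of Il2rb, Il2ra, Il15ra and Il15 was not tested. The ILC3 markers themselves were all measured, with 1 higher and 1 (Ccr6) lower at an unadjusted p under 0.05 out of 12. Kit, a receptor kinase of ILC3s, was at 245 and 250 FPKM against 285 and 242 FPKM. Of 7 B cell markers 2 were tested, in opposite directions. Cd79b, a chain of the B cell receptor complex, fell from 8.68 and 10.02 FPKM to 1.03 and 0.99 FPKM (log2 fold change -2.36, adjusted p = 0.0386), while Ighm was at 22.9 and 15.0 FPKM against 33.2 and 47.8 FPKM (unadjusted p = 0.0103, adjusted p = 0.221). The summed FPKM of the 7 was 32.8 and 25.8 against 36.1 and 49.5. Of 8 markers of epithelium, stroma and endothelium 4 were tested, with Krt8 higher at an unadjusted p under 0.05 (0.44 and 0.38 FPKM against 2.65 and 2.34 FPKM), and the sum was 66.5 and 92.1 against 71.5 and 69.9 FPKM.

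The remaining chains did not pass the test at any threshold. Il2rg (ENSMUSG00000031304; chromosome X from 101264378 to 101268255, minus strand), which encodes γc itself, was at 1215 and 1031 FPKM in Brg1-sufficient and 1073 and 1031 FPKM in Brg1-deficient libraries. The second library had the same deposited value in both groups, 1030.97 FPKM, and the same rank, 81. The log2 fold change of Il2rg was -0.09 (95% CI -0.47 to 0.29, adjusted p = 0.834). Il7r (ENSMUSG00000003882; chromosome 15 from 9505788 to 9530176, minus strand), the receptor for IL-7, was at 433 and 542 FPKM against 486 and 583 FPKM, with overlapping groups and a log2 fold change of 0.14 (95% CI -0.31 to 0.58, adjusted p = 0.785). Il4ra (ENSMUSG00000030748; chromosome 7 from 125552120 to 125579474, plus strand), the IL-4 receptor chain that also serves IL-13, was at 82.7 and 99.8 FPKM against 121 and 69.7 FPKM. The Brg1-deficient libraries enclosed both Brg1-sufficient libraries, and the log2 fold change was 0.02 (95% CI -0.70 to 0.73, adjusted p = 0.989). It was -0.032 with median-of-ratios scaling, -0.12 without Brg1-sufficient library 1 and -0.38 without Brg1-deficient library 1. Il21r (ENSMUSG00000030745; chromosome 7 from 125603429 to 125633570, plus strand), the IL-21 receptor, was at 3.19 and 2.92 FPKM against 3.50 and 1.56 FPKM, with a log2 fold change of -0.26 (95% CI -1.12 to 0.61, adjusted p = 0.793). These intervals leave room for changes in either direction.

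Over the 9 members tested, 3 (Il2, Il15ra and Il2rb) had an unadjusted p under 0.05, against 12.6% of all genes tested. The same 3 met the limits the study set for its gene list (unadjusted p under 0.05, adjusted p under 0.4, mean FPKM above 5 in either group, log2 fold change of the mean beyond 0.5), against 8.22% of all genes tested. In 5 of 9 the groups did not overlap (Il2, Il2ra and Il15ra higher, Il2rb and Il15 lower in Brg1-deficient ILC3s), against 44.6% of all genes tested. The median log2 fold change of the 9 was 0.02, beside 0.03 for all genes tested.

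**Figure D2:**
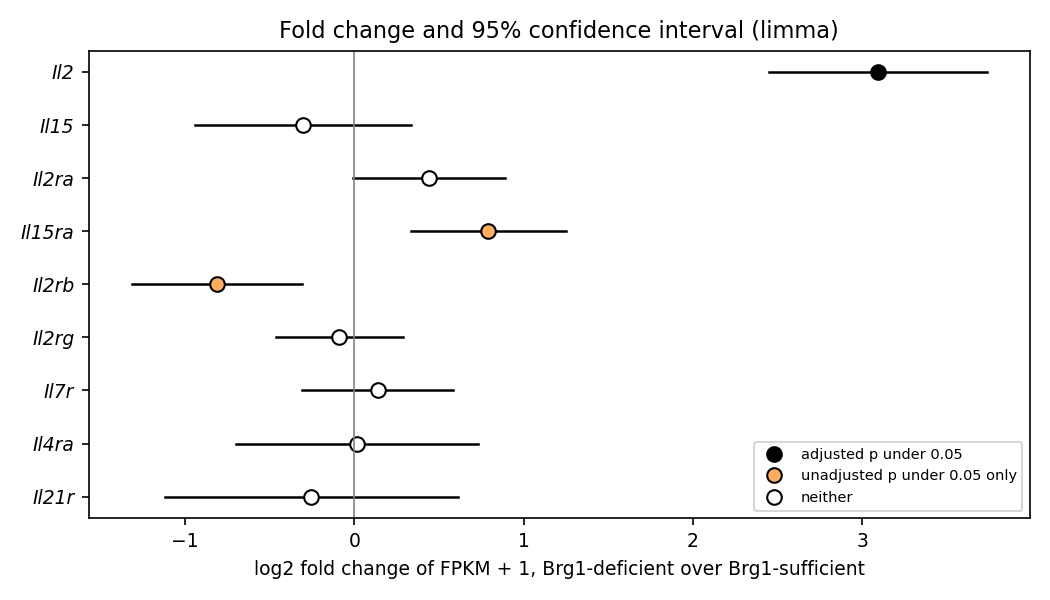
Log2 fold change of FPKM + 1, Brg1-deficient minus Brg1-sufficient, of the 9 members tested, with 95% confidence intervals from limma. Il2 (black, adjusted p under 0.05) is at 3.09, Il15ra at 0.79 and Il2rb at -0.81 (orange, unadjusted p under 0.05), and the intervals of the others (white) include 0.

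In order of FPKM, Brg1-sufficient ILC3s had Il2rg first with a mean of 1123, followed by Il7r at 487, Il2rb at 462, Il2ra at 121, Il4ra at 91.3, Il15ra at 15.0, Il2 at 6.28, Il15 at 3.72, Il21r at 3.06 and Il21 at 0.1 FPKM. Il7r and Il2rb were the only neighbours whose libraries overlapped. In Brg1-deficient ILC3s the order was Il2rg at 1052, Il7r at 535, Il2rb at 262, Il2ra at 163, Il4ra at 95.4, Il2 at 59.5, Il15ra at 26.5, Il15 at 2.83, Il21r at 2.53 and Il21 at 0.24 FPKM. Only Il15 and Il21r overlapped there, and Il2 and Il15ra had changed places.

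Within each library, the balance between chains was taken as a ratio of their FPKM, which a scaling factor of the library does not change. A step that gave the libraries their shared distribution, if one was used, could change such ratios. Il2rb was 0.329 and 0.508 of Il2rg in the Brg1-sufficient libraries and 0.272 and 0.224 of it in the Brg1-deficient libraries. Il2ra was 0.347 and 0.197 of Il2rb against 0.554 and 0.707, a log2 difference of 1.26. Il15ra was 0.0417 and 0.0254 of Il2rb against 0.0849 and 0.122, a log2 difference of 1.65. The message for both α chains was thus higher relative to that of the shared β chain in both Brg1-deficient libraries. Il7r and Il2rb were near parity in the Brg1-sufficient libraries, at 1.08 and 1.03, while Il7r was 1.66 and 2.52 times Il2rb in the Brg1-deficient libraries. The ligands differed most, with Il2 at 1.12 and 2.40 times Il15 against 24.7 and 18.3 times. The groups did not overlap in any of the 5 ratios, each of which had an exact permutation p of 0.333 (two-sided), the smallest that this design allows. The ratios share members with each other and are not separate evidence.

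**Figure D3:**
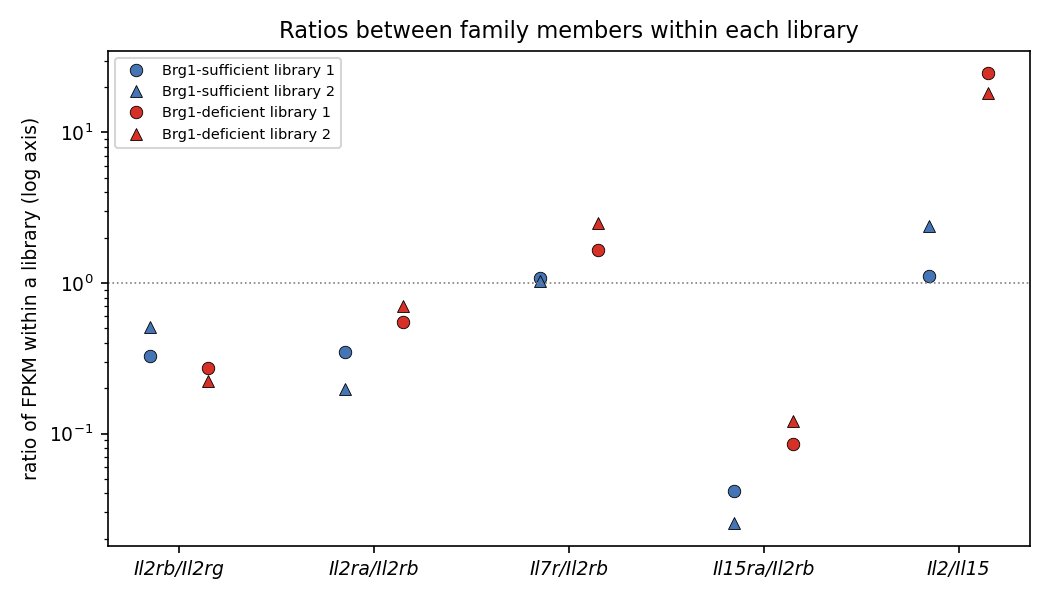
Ratios of FPKM within each library on a log axis for 5 pairs of members (blue for Brg1-sufficient, red for Brg1-deficient; circle for library 1, triangle for library 2). In each pair the red points lie on 1 side of the blue points; Il2rb over Il2rg is the pair in which they lie lower, at 0.272 and 0.224 against 0.329 and 0.508.

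Several members lie beside each other in the genome. On chromosome 3 Il2 and Il21 are on the same strand, 96.8 kb apart, with no protein-coding gene between them, yet Il2 rose while Il21 stayed under 1 FPKM. The next tested gene beyond Il21, Cetn4, was at 5.11 and 5.97 FPKM against 2.42 and 3.28 FPKM (log2 fold change -0.77, limma unadjusted p = 0.0206, adjusted p = 0.284). Adad1, which overlaps the last part of Il2 on the opposite strand, was at 0.12 and 0.56 FPKM against 1.08 and 1.70 FPKM (log2 fold change 0.84, adjusted p = 0.473). Strand use in the counting was not stated in the sources used here, so reads in this overlap cannot be told apart. On chromosome 2, Il2ra and Il15ra lie 12.1 kb apart on the plus strand with no annotated gene between them, and both had higher means in Brg1-deficient ILC3s. Gm37881 is a transcript model of uncertain status inside Il2ra on the same strand. It was at 42.9 and 32.7 FPKM against 47.9 and 61.1 FPKM (log2 fold change 0.52, limma unadjusted p = 0.0494, adjusted p = 0.395). Its reads cannot be told apart from those of Il2ra. The flanking genes had small log2 fold changes, -0.03 for Rbm17 and 0.28 for Fbxo18. On chromosome 7, Il4ra and Il21r lie 24.0 kb apart on the plus strand, and neither passed the test. Beside Il7r, Spef2 was at 0.73 and 1.16 FPKM against 3.41 and 4.99 FPKM (log2 fold change 1.41, unadjusted p = 0.00475, adjusted p = 0.16), and Lmbrd2 on the other side gave 0.64 on the log2 scale (adjusted p = 0.427). The tested neighbours of Il2rb, Il2rg, Il15, Il4ra and Il21r had log2 fold changes from -0.44 (Gtf3c1, beside Il21r) to 0.26 (Nsmce1, beside Il4ra, and Zfp330, beside Il15), none at an unadjusted p under 0.05.

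The genes whose pattern over the 4 libraries was most like that of a member were found by the Euclidean distance of log2(FPKM + 1), each gene centred on its own mean, among 9095 genes with a mean above 5 FPKM in either group. Nearest to Il2 were Cpne4 (distance 0.414), at 0.50 and 1.16 FPKM against 11.3 and 10.3 FPKM, and the non-coding Gm29371 (distance 0.453) and transcript model Gm44797 (distance 0.683). Nearest to Il2rb were Zfp599 (distance 0.0595), Pag1 (distance 0.069) and Aldh2 (distance 0.101). Pag1, a membrane adaptor that recruits an inhibitor of Src kinases, was at 14.3 and 20.3 FPKM against 10.4 and 7.90 FPKM. Nearest to Il15ra were Hdac10 (distance 0.0791), Serf1 (distance 0.101) and Cyp2j9 (distance 0.115), with Hdac10, a polyamine deacetylase, at 8.56 and 6.74 FPKM against 13.9 and 14.7 FPKM.

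The rest of the pathway was described by lists of its cytokines, receptor chains, kinases, inhibitors, targets and regulators. Among all genes tested, 12.6% had an unadjusted p under 0.05 (limma), the share to set beside the count of each list. Of the 7 family cytokines 4 were tested, and besides Il2 only Il4 had an unadjusted p under 0.05. Il4, the cytokine read by the Il4ra chain, was at 13.4 and 5.18 FPKM in Brg1-sufficient and 0.26 and 0.24 FPKM in Brg1-deficient libraries (log2 fold change -2.92, SE 0.446, unadjusted p = 0.000934, adjusted p = 0.0917). Il4 and Il2 thus stood in opposite directions, though Il4 did not pass the adjusted threshold. ILC2s are a known source of Il4. Of the 9 ILC2 markers tested, 8 were lower and Hpgds was higher in the Brg1-deficient libraries, and their part in the value of Il4 was not tested. Of the 10 receptor chains 9 were tested, with Il15ra, Il2rb and Crlf2 at an unadjusted p under 0.05. Crlf2, the TSLP receptor chain that pairs with Il7r, was at 8.78 and 10.8 FPKM against 6.78 and 6.15 FPKM (log2 fold change -0.53, adjusted p = 0.367). The count of 3 chains was 1 without Brg1-deficient library 1 and 0 without Brg1-deficient library 2.

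Below the receptors, 21 kinases, STATs and adaptors were all tested. An unadjusted p under 0.05 was reached by 1 of them, against 12.6% of all genes tested. This was Lck, a Src kinase of lymphocytes that binds IL-2Rβ, at 57.5 and 47.5 FPKM against 23.8 and 21.8 FPKM (log2 fold change -1.16, SE 0.165, adjusted p = 0.0843). The count was 5 without Brg1-sufficient library 2. The kinase of γc, Jak3, was at 30.3 and 48.4 FPKM against 41.3 and 36.8 FPKM, and Stat5b, a STAT that IL-2, IL-7 and IL-15 use, was at 53.1 and 66.8 FPKM against 60.2 and 67.4 FPKM, both with overlapping groups. Of 15 inhibitors, all tested, Ptpn6 and Ptpn2 were higher and Dusp6 lower at an unadjusted p under 0.05, and none at an adjusted p under 0.05 (limma). Ptpn6, the phosphatase SHP-1, was at 54.0 and 79.8 FPKM against 99.9 and 106 FPKM, and Dusp6, a phosphatase of ERK, at 48.2 and 54.6 FPKM against 38.3 and 35.4 FPKM. The count of 3 was 0 without Brg1-deficient library 1 and 0 without Brg1-deficient library 2. Cish, a feedback inhibitor induced by STAT5, had overlapping groups at 42.8 and 57.7 FPKM against 59.1 and 46.3 FPKM.

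Genes that STAT5 or IL-2 is known to regulate numbered 22, of which 21 were tested. At an unadjusted p under 0.05, 5 were higher and 7 lower, against 12.6% of all genes tested in either direction. The list is mixed in kind, since it includes Bcl6, which IL-2 represses. At an adjusted p under 0.05, 1 gene was lower, Ifng, the type 1 effector cytokine. Ifng was at 22.8 and 37.3 FPKM against 3.42 and 3.22 FPKM (log2 fold change -2.80, SE 0.267, adjusted p = 0.0386). Prf1, the pore protein of killer cells, was at 3.32 and 4.17 FPKM against 0.45 and 0.36 FPKM (log2 fold change -1.75, adjusted p = 0.104). Ifng and Prf1 are also in the ILC1 and NK list, of which 9 of the 10 tested were lower. On the higher side, Lif and Pim2 were chosen after their values were seen. Lif, a cytokine of the IL-6 family, was at 22.2 and 28.2 FPKM against 71.9 and 56.3 FPKM (log2 fold change 1.31, adjusted p = 0.0917), and the survival kinase gene Pim2 was at 87.2 and 123 FPKM against 215 and 221 FPKM (log2 fold change 1.07, adjusted p = 0.115). The 12 genes at an unadjusted p under 0.05 became 5 without Brg1-deficient library 1.

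**Figure D4:**
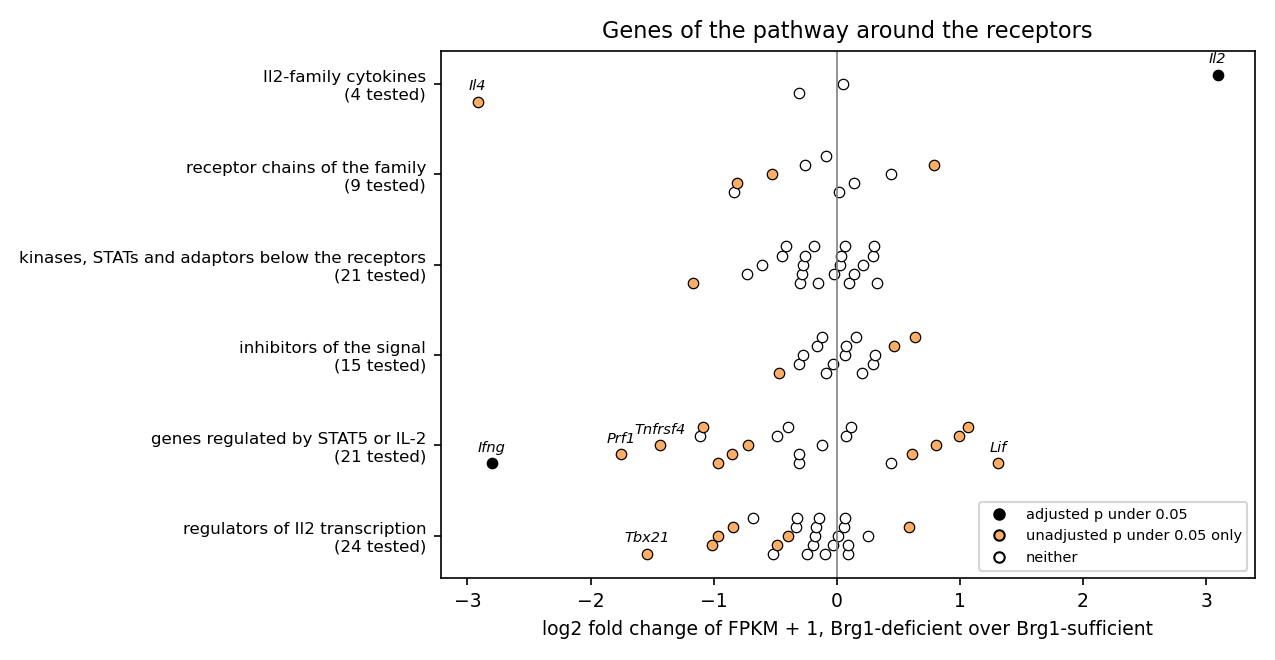
Log2 fold change of FPKM + 1, Brg1-deficient minus Brg1-sufficient, of the tested genes of 6 pathway lists, 1 point per gene (black for an adjusted p under 0.05, orange for an unadjusted p under 0.05 alone, white for neither). Each list is a row. Il2 at 3.09 lies farthest to the right, and Il4 at -2.92 and Ifng at -2.80 farthest to the left. The kinases, inhibitors and receptor chains lie nearer to 0.

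Of 25 regulators of Il2 transcription, 24 were tested. At an unadjusted p under 0.05, 1 was higher and 6 lower, against 12.6% of all genes tested in either direction. None passed an adjusted p under 0.05 (limma). Tbx21, which encodes T-bet, a factor known to repress Il2 in T cells, was at 4.21 and 6.04 FPKM against 1.28 and 0.90 FPKM (log2 fold change -1.54, SE 0.287, adjusted p = 0.119). Satb1, a chromatin organizer, was at 21.4 and 15.5 FPKM against 6.76 and 10.7 FPKM (log2 fold change -1.01, adjusted p = 0.236). Ikzf3 (Aiolos), another repressor of Il2 in T cells, and Batf, an AP-1 family factor, were chosen after their values were seen. Ets1, Zeb1 and Prdm1, the other genes of this list at an unadjusted p under 0.05, were lower (log2 fold changes -0.49, -0.40 and -0.97). Ikzf3 was at 63.9 and 67.1 FPKM against 37.4 and 34.6 FPKM (log2 fold change -0.85, adjusted p = 0.102), and Batf at 91.3 and 112 FPKM against 155 and 150 FPKM (log2 fold change 0.59, adjusted p = 0.223). The NFAT genes Nfatc1 and Nfatc2, whose proteins bind the core marked in the Il2 promoter, had log2 fold changes of 0.10 and -0.15 with overlapping groups. The 7 genes of this list became 2 without Brg1-deficient library 1 and 3 without Brg1-deficient library 2. Tbx21 is also an ILC1 and NK marker and is known from the NKp46+ subset of ILC3s. The part of any of these cells in its value was not tested.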

How the data were processed

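RNA from sorted ILC3s was reverse transcribed, amplified by PCR and sequenced single end by the authors. They mapped reads to GRCm38.p5 with STAR 2.5, quantified genes with RSEM 1.2 on GENCODE M16, per the submitters' processing notes and the study's methods, and deposited 1 FPKM value per gene and library. A normalization beyond FPKM is not named in the sources used here.

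Libraries were grouped by donor genotype from the labels. Genes averaging above 1 FPKM in at least 1 group were tested with limma 3.58.1 (trend) in R 4.3.3 on log2(FPKM + 1), without a replicate block, with Benjamini-Hochberg adjustment. The study's own edgeR test on counts was not repeated. The members and lists were chosen with earlier results of these data known. The genes named were the members, Smarca4, markers of the cell type lists, the members' tested neighbours, the 3 nearest genes of each member at an unadjusted p under 0.05, pathway list genes at an adjusted p under 0.05 and the 2 largest changes per pathway list at an unadjusted p under 0.05. Jak3, Stat5b, Cish, Nfatc1, Nfatc2, Crlf2, Ptpn2, Lif, Pim2, Ikzf3, Batf, Ets1, Zeb1 and Prdm1 were named outside that rule, after their values were seen. Positions came from GENCODE M21 (53274 of 53379 identifiers matched). The fit was tested on simulated data. Alternatives were the pseudocount, the filter, scaling, quantile normalization, the trend, the replicate block and leaving out each library. The accessibility libraries were not analysed here, and 1 genetic element and 1 marker gene are not reported here.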

Additional observations from a re-analysis of the deposited data

How the results depend on the processing

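Leaving out each library in turn left 1 library in a group, which was assumed to vary like the other group, and gave 0 to 0 members and 0 to 0 genes in either direction at an adjusted p under 0.05 (limma), with 735 to 1507 genes higher and 507 to 1675 lower at an unadjusted p under 0.05. Members at an unadjusted p under 0.05 then numbered 1 to 4 and those meeting the study's limits 0 to 4, the lowest in each case without Brg1-deficient library 2. Log2 fold changes ranged from 2.75 to 3.44 for Il2, 0.23 to 0.65 for Il2ra, 0.64 to 0.94 for Il15ra, -1.01 to -0.62 for Il2rb, -0.47 to -0.14 for Il15, -0.21 to 0.029 for Il2rg, -0.025 to 0.30 for Il7r, -0.66 to 0.15 for Il21r and -0.38 to 0.41 for Il4ra. Il2rg and Il7r turned their sign without Brg1-sufficient library 1, Il21r without Brg1-deficient library 2, and Il4ra without Brg1-sufficient library 1 (-0.12) or Brg1-deficient library 1 (-0.38) and with median-of-ratios scaling (-0.032). The cause was not tested.

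Without the filter on low FPKM (44235 genes tested), 0 members and 0 genes in either direction passed an adjusted p under 0.05, Il2 having an adjusted p of 0.0912, with 1308 higher and 1400 lower at an unadjusted p under 0.05, and 1 member met the study's limits. In limma without the trend 0 members and 0 genes in either direction passed the adjusted threshold, Il2 having an adjusted p of 0.124, with 903 higher and 965 lower at an unadjusted p under 0.05. A limit of a mean FPKM above 5 gave 41 higher and 73 lower genes at an adjusted p under 0.05, in place of 12 and 33. The sign of the log2 fold change of Il2, Il15, Il2ra, Il15ra and Il2rb was kept under all alternatives run. All 5 ratios kept theirs. The groups of these members and ratios did not overlap, so leaving out 1 library could not turn a sign. The filter, the trend and the block leave the fold change itself as it was. Quantile normalization hardly moves values that already share 1 distribution. Most of these alternatives therefore could not have turned a sign.

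Adding the replicate number as a block to the fit gave 150 genes that were higher and 248 that were lower at an adjusted p under 0.05, and 45 of the 45 genes called without it were among them. Il2ra then had an unadjusted p of 0.037, which made 4 members, and the kinase list had 3 genes in place of 1. The labels do not say that the numbers pair the libraries, and over 14739 genes the correlation between same-numbered libraries, each centred on its group, was -0.000386. The depth is unknown, so counting error cannot be set beside these values.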
